A study of Mus musculus with 17 samples.

Results

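The antioxidant, metallothionein and iron storage genes of mouse skin fibroblasts were described cell by cell in 17 single cells. Members were taken by gene name alone: the glutathione peroxidases, peroxiredoxins, superoxide dismutases, glutathione S-transferases, thioredoxin-named genes, metallothioneins, ferritin subunits, glutaredoxins and numbered aldehyde dehydrogenases, with Cat, Hmox1, Nqo1, Gclc, Gclm and Gsr. The rule found 66 of the 8446 rows of the table and each has its own symbol. Mt1, Mt3 and Fth1 had no row and were not analysed here.

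The cells came from the back skin of adult C57BL/6 mice of genotype Prrx1-CreERT;Tomato. In these mice tamoxifen switches on a Cre recombinase driven by Prrx1, a gene of dermal mesenchyme, and Cre activity turns on the red Tomato reporter. Tamoxifen was given daily for 3 days at 2 mg per 30 g of body weight, and Tomato-positive cells were sorted and then picked singly after elastase and collagenase digestion. All 17 cells form 1 group with no control and no named animal, so they are 1 sample, and the values below are levels and spreads over cells with no test between conditions.

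Levels are the deposited values, read as log2 of FPKM (fragments scaled to transcript length and library size) plus 1. A gene is called detected in a cell at FPKM 1 or more, which is a deposited value of 1. The values follow the same distribution in every cell, so 4369 rows (51.7%) are detected in each cell by construction, and read depth is unknown. Library construction captured the 3' end of each message, for which division by gene length raises short genes. The detection count and the ranks of some leading members are therefore also given after multiplication by exonic length. Role medians and all other levels are as deposited, so their order between genes depends in part on length. Of 11 fibroblast markers 10 had a row, and each cell had 9 or 10 of them. The summed level of the 10 markers ranged from 72.2 to 101.7. Among other skin cell types, the adipocyte list had 3 measured genes, with a summed level of 0.775 to 22.1 and the highest sum in cell 16. The pericyte list had 6, with a summed level of 0.151 to 11.4, and the endothelial list had 3, with 0.422 to 7.57. Keratinocyte, immune, melanocyte, Schwann and erythroid lists had 1 or 2 measured genes each, and no cell exceeded a summed level of 7.70 on any of them. No measured marker of these lists was below detection in every cell. The part of these other cell types in the results below was not tested. Cell 16 had the lowest median Spearman correlation with the other cells (0.416, against a median of 0.468 over cells), so results that rest on it are also given without it.

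Reactive oxygen species are disposed of in a relay. Superoxide dismutases turn superoxide into hydrogen peroxide, and catalase, glutathione peroxidases and peroxiredoxins remove the peroxide. Glutathione and thioredoxin supply the electrons, and are recharged by their reductases at the cost of NADPH. Metallothioneins bind zinc and copper, ferritin stores iron that would otherwise feed radical formation, and glutathione S-transferases and aldehyde dehydrogenases clear reactive by-products. The transcription factor NRF2 (gene Nfe2l2) is the main inducer of many of these genes, and MTF1 is the zinc sensor of the metallothionein genes.

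As a group the genes stood high, but not in every role. Of the 66 members, 25 were detected in all 17 cells, where 13% of all rows were, and 45 were detected in at least 9 cells, where 46.9% of all rows were. At FPKM 10 or more, a deposited value of 3.46, 17 members were found in every cell, where 5.65% of all rows were. The median member had a mean level of 3.97, against 1.89 for the median row of the table. Medians by role differed widely. They were 9.49 for the 5 glutathione peroxidases and 7.72 for the 6 peroxiredoxins. The 14 glutathione S-transferases had a median of 2.18, the 10 aldehyde dehydrogenases 1.89, and the 5 glutathione synthesis and NRF2 target genes 1.40. Every member was detected in at least 1 cell, and 0.912% of all rows were detected in none. The members have shorter exonic sequence than the table as a whole (median 2898 against 4414 bases), but with values multiplied by length 26 members were still detected in all cells, where 13.9% of all rows were. Each cell had between 41 (cell 8) and 50 (cell 11) members detected, that is 62.1% to 75.8%.

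**Figure D1:**
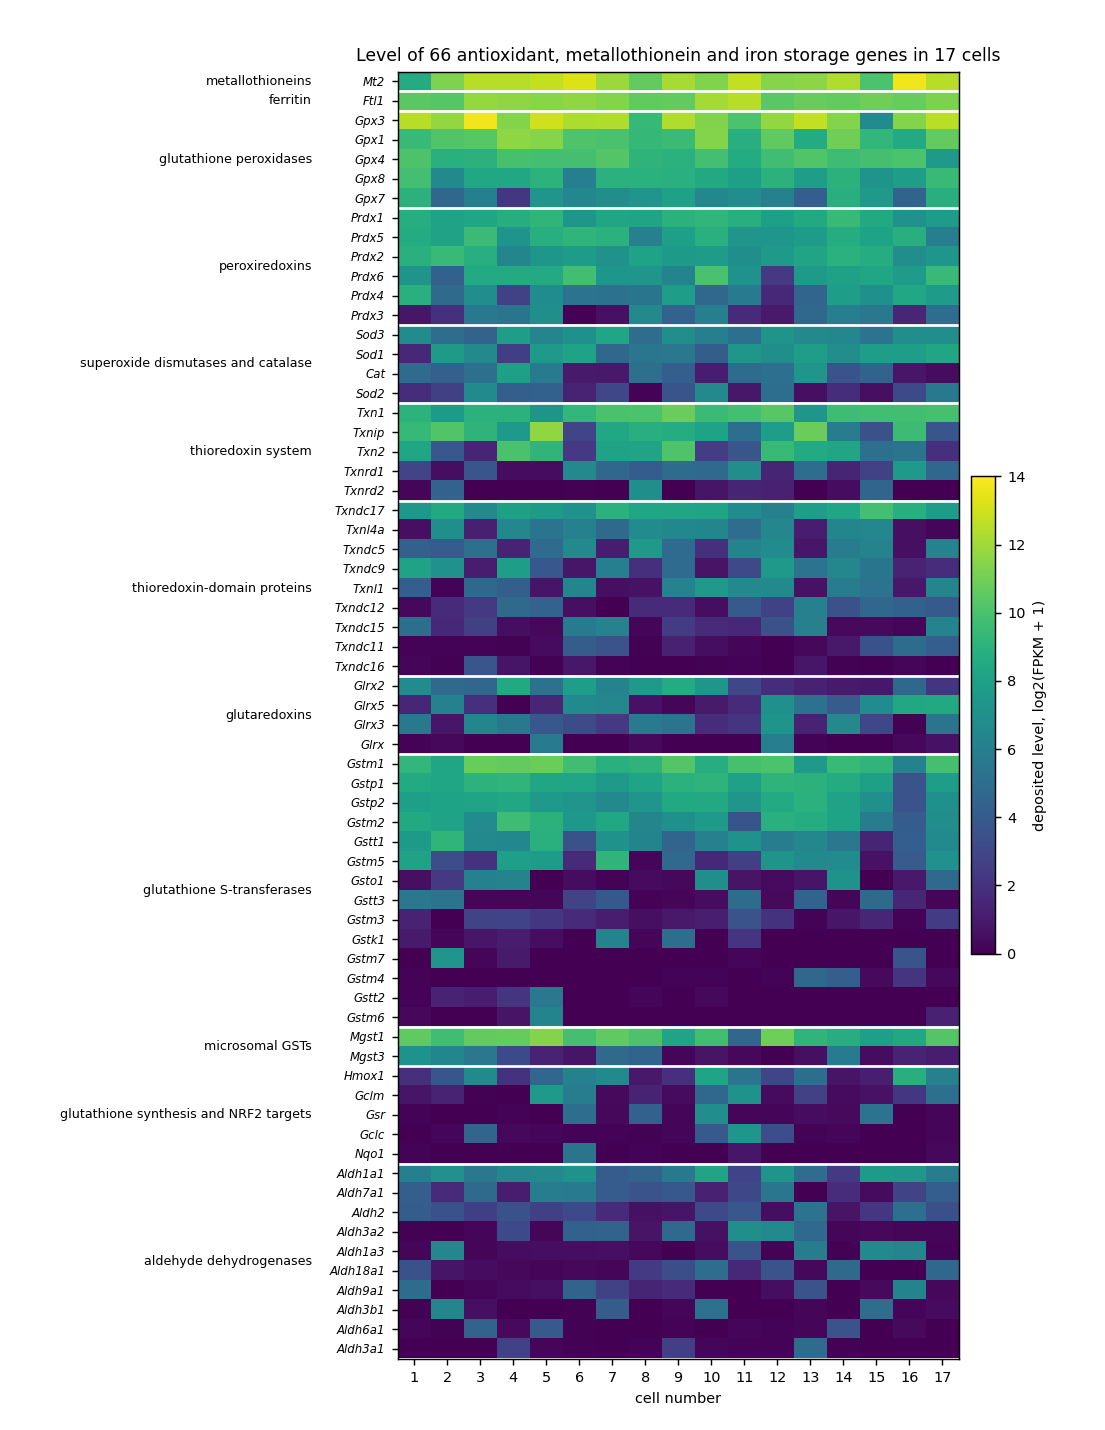
Level of each of the 66 members (rows, grouped by role and sorted by mean) in each of the 17 cells (columns), as deposited log2(FPKM + 1) from 0 (dark) to 14 (bright). Mt2, Ftl1, Gpx3, Gpx1 and Gpx4 are bright across the row, whereas Nqo1, Gclc and Gsr are dark in most cells.

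Mt2, which encodes a small cysteine-rich protein that binds zinc and copper, had the highest mean of all members and had rank 5 of all 8446 rows. Its level was 11.83 ± 1.24 (SD, n = 17 cells), from 8.62 in cell 1 through a median of 12.17 to 13.69 in cell 16. Cells 1, 15 and 8 were the 3 lowest, at 8.62, 10.01 and 10.63, and the other 14 cells lay at 11.30 or above. Mt2 lies on chromosome 8 (94172664 to 94173568, plus strand, GRCm38), where an antisense gene model overlaps most of it, and whether counting used strand is not given in the sources used here. After multiplication by length it was the third of the members, behind Gpx3 and Ftl1, because its exonic length is 588 bases. Metallothionein promoters are known for metal response elements, the sites of MTF1. The bases before the RefSeq start of Mt2 are shown since it is the leading member, with matches to the core TGCACNC or TGCGCNC on either strand in capitals (GRCm38.p6, chr8:94172368-94172617, plus strand).
Mt2: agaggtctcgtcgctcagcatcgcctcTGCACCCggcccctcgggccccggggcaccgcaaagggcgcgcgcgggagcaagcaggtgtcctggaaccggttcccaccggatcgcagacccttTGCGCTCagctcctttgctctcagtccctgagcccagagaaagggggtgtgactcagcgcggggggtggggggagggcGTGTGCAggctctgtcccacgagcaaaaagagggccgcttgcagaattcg
The stretch of 250 bases holds 3 matches, 2 read on the strand of the gene and 1 on the other. Of 32851 windows of this length before RefSeq starts, 7032 (21.4%) hold at least 1 match. Among members with a window, 13 of 54 hold one (24.1%), and 23.8% of all genes do. The Mt2 window also holds 1 match to the antioxidant response element core described below, which overlaps none of the bases in capitals. MTF1's own gene, Mtf1, was detected in 9 cells with a mean of 1.54 (SD 1.93).

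Ftl1, the light subunit of ferritin, which helps mineralise stored iron, was high and steady. Its level was 11.14 ± 0.65 (SD, n = 17 cells), from 10.29 in cell 2 through a median of 10.98 to 12.47 in cell 11. All 17 values lay within 2.18 log2 units, the narrowest range of any member. Of 100 rows nearest to it in mean level, 27% had a smaller SD. The last 300 bases of its transcript share 65.7% of their 50-base words with transcripts of 11 other genes, chiefly the pseudogene Ftl1-ps1, so part of the reads may have been assigned among copies. Of all rows 13% were detected in all cells, and of 10 measured iron handling partners 2 were. They were the iron chaperone genes Pcbp2 (mean 6.44, SD 0.96) and Pcbp1 (mean 6.11, SD 1.98). Blvrb, a biliverdin reductase, had a mean of 7.21 (SD 2.60) and was detected in 16 cells. Ireb2, which encodes an iron-sensing repressor of ferritin translation, was detected in 2 cells (mean 0.64, SD 1.39).

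All 5 measured glutathione peroxidase genes were detected in every cell, where 13% of all rows were. Among the 12 highest members by deposited mean 4 were of this family. After multiplication by length Gpx3, Gpx1 and Gpx4 had ranks 1, 4 and 6 of the members, and Gpx8 fell to 15. Gpx3, the secreted plasma form, had a level of 11.57 ± 1.62 (SD, n = 17 cells), from 6.74 in cell 15 through a median of 11.75 to 13.69 in cell 3. Cells 15, 8 and 11 were low, at 6.74, 9.40 and 10.03, and the other 14 cells lay at 11.34 or above. Gpx1, the cytosolic form, was at 10.05 ± 0.99, from 8.57 (cell 16) through a median of 10.14 to 11.64 (cell 4). Gpx4, which reduces lipid peroxides and holds back ferroptosis, was at 9.49 ± 0.71, from 7.55 (cell 17) through a median of 9.82 to 10.23 (cell 7). Gpx4 was among the steadier genes of its level, with 21% of the 100 nearest rows having a smaller SD, whereas 88% had a smaller SD than Gpx3. The end of the Gpx4 transcript shares 98.4% of its 50-base words with the pseudogene Gpx4-ps2. Gpx8 (8.34 ± 0.996) and Gpx7 (6.56 ± 1.82), both forms of the endoplasmic reticulum, were also present throughout, Gpx7 with its lowest value, 2.29, in cell 4.

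The family did not move as one. The mean pairwise correlation of the 5 genes over cells was 0.065. Gpx3 and Gpx4 had a Pearson r of -0.04 and a Spearman rho of 0.08, and Gpx3 and Gpx1 an r of 0.30 and a rho of 0.20. Gpx1, Gpx3 and Gpx4 carry selenium as selenocysteine. Of all rows 13% were detected in all cells, and of 12 measured genes on the list of other selenoproteins and their synthesis, 6 were. They were led by Selenof (mean 8.89, SD 1.18), Selenom (mean 8.82, SD 0.81) and Selenok (mean 8.52, SD 1.03), which encode selenoproteins of the endoplasmic reticulum. The machinery itself was lower, with the selenocysteine elongation factor Eefsec detected in 3 cells and the selenophosphate synthetase Sephs2 in 2.

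Peroxiredoxins, which reduce peroxide with electrons from thioredoxin, were detected in all cells in 5 of 6 cases, where 13% of all rows were. Prdx1 was at 8.42 ± 0.63 (SD, n = 17 cells), from 7.18 (cell 16) through a median of 8.48 to 9.48 (cell 14), and had the smallest SD of any member. Prdx5 followed at 8.08 ± 1.02 and Prdx2 at 7.89 ± 0.85, with lowest values of 6.02 and 6.43. Prdx6, which uses glutathione, was at 7.56 ± 1.91 with a single low cell, 2.31 in cell 12 against 4.28 or more elsewhere. Prdx4, the form of the endoplasmic reticulum, was at 5.98 ± 1.98. The mitochondrial Prdx3 was the exception, detected in 14 cells with a mean of 3.78 (SD 2.42).

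Of the superoxide dismutases, the secreted Sod3 was at 6.37 ± 1.07 (SD, n = 17 cells), from 4.43 in cell 3 through a median of 6.58 to 8.21 in cell 7. The cytosolic Sod1 had a similar mean but a wider spread, 6.29 ± 2.00, with 1.60 in cell 1 and 2.58 in cell 4, a median of 6.97 and 8.31 in cell 17. The mitochondrial Sod2 (mean 3.07, SD 2.11) was detected in 13 cells and Cat, the peroxisomal catalase (mean 3.96, SD 2.30), in 14.

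In the thioredoxin system, Txn1, the cytosolic thioredoxin, was at 9.31 ± 1.04 (SD, n = 17 cells), from 7.24 in cell 5 through a median of 9.67 to 10.81 in cell 9. Txnip, which binds and inhibits thioredoxin, was far more uneven: 7.72 ± 2.61, from 2.94 in cell 6 through a median of 8.36 to 11.69 in cell 5. Its values were 5.93 or less in cells 6, 15, 17, 11 and 14 and 7.58 or more in the other 12, and 94% of the 100 rows nearest in mean had a smaller SD. Txn1 and Txnip ran in opposite directions over cells (r = -0.51, rho = -0.45, n = 17), but r was -0.23 without cells 5 and 13, the farthest from the Txn1 median. Txn2 was also uneven, at 6.25 ± 3.10 with a median of 8.05, from 1.46 in cell 3 to 10.14 in cell 9. Txnrd1, the cytosolic thioredoxin reductase, was detected in 14 cells (mean 3.71, SD 2.28) and Txnrd2, the mitochondrial one, in 5 (mean 1.20, SD 2.09).

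**Figure D2:**
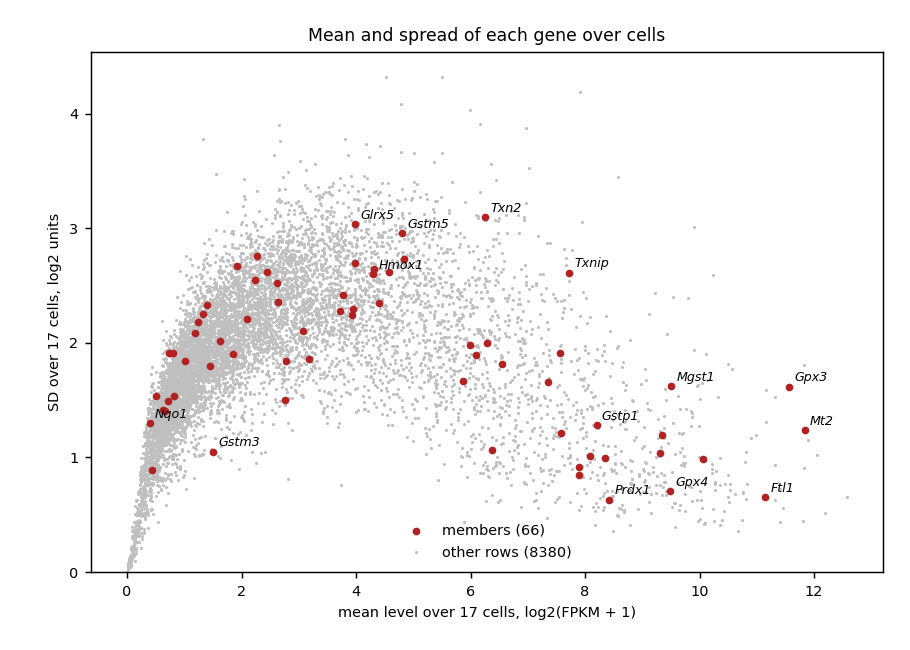
Mean level over the 17 cells (horizontal, log2(FPKM + 1)) against the SD over cells (vertical, log2 units) for the 66 members (red) and the other rows of the table (grey). Ftl1, Gpx4 and Prdx1 lie in the lower part of the cloud for their level, and Txnip and Txn2 at the upper edge.

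Of the 25 members detected in every cell, 13 had an SD below the midpoint of the 100 rows nearest in mean, and the median percentile was 49. The plot of mean against SD shows both sides of this, with 5 members below the 25th percentile and 4 at or above the 75th. The nearest rows were not limited to those detected in every cell, so these percentiles do not come from a matched set.

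The rule also takes in 9 genes that carry a thioredoxin-like fold or name without being antioxidant enzymes in the strict sense. Txndc17, a small cytosolic disulfide reductase, was at 7.90 ± 0.92 (SD, n = 17 cells) and the only one detected in all cells. Txnl4a, a spliceosome subunit, was detected in 14 cells (mean 4.57, SD 2.62), and Txnl1, a proteasome-associated protein, in 11 (mean 3.99, SD 2.70). Txndc16 was detected in 1 cell. Among 4 glutaredoxins, which reduce disulfides with glutathione, the mitochondrial Glrx2 was detected in 16 cells (mean 4.84, SD 2.74). Glrx5, a mitochondrial iron-sulfur cluster protein, was detected in 13 (mean 3.98, SD 3.04), from 0 in cell 4 through a median of 4.00 to 8.48 in cell 17. Glrx itself was detected in 2 cells.

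Glutathione S-transferases ranged from genes high in most cells to genes detected in few. Of 14 measured genes 5 were detected in all cells, namely Gstm1, Gstp1, Gstp2, Gstm2 and Gstt1, and 7 in at least 9 cells. The matching shares of all rows were 13% and 46.9%. Gstp1 and Gstp2 count as 2 of the 5 though they are not separate measurements, as given below. Gstm1, the leading mu-class gene, was at 9.34 ± 1.20 (SD, n = 17 cells), from 6.18 in cell 16 through a median of 9.49 to 10.86 in cell 5. The pi-class gene Gstp1 was at 8.20 ± 1.28, from 3.64 in cell 16 through a median of 8.27 to 9.18 in cell 4. Gstp1 was thus nearly level in the other cells, which lay at 7.55 or above, and far lower in cell 16. Gstm6 reached 6.32 in cell 5, Gstm7 reached 7.31 in cell 2 and 3.62 in cell 16, and Gstm4 was detected in 3 cells. Gsto1, an omega-class gene, was detected in 6 cells and reached 7.19 in cell 14. Of the microsomal, membrane-bound transferases Mgst1 was at 9.50 ± 1.62, from 4.63 in cell 11 through a median of 9.88 to 11.40 in cell 5, and Mgst3 was detected in 10 cells (mean 2.61, SD 2.53). For Mgst1 cell 11 lay apart, the next lowest value being 7.89 in cell 15.

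Gstp1 and Gstp2 are near-identical neighbours on chromosome 19, and their values cannot be taken as separate measurements. Their levels had r = 0.97 and rho = 0.94 over the 17 cells, and r was 0.93 with cell 16 left out. Gstp2 was at 7.59 ± 1.21 and also lowest in cell 16, at 3.60. Their coding sequences of 630 bases differ at 12 positions (98.1% identity), and every 50-base word in the last 300 bases of either transcript is found in the other, so that reads of a 3' end library cannot be told apart there. The first 90 coding bases, which hold 6 of the differences, are shown from GENCODE M21 with the differing bases in capitals. They span coding exons between chr19:4037344-4037863 for Gstp1 and chr19:4041638-4042165 for Gstp2 (GRCm38, minus strand).
Gstp1: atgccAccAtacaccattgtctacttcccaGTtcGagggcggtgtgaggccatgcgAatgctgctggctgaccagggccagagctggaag
Gstp2: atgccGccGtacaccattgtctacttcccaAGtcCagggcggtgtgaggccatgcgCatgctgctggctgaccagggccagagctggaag
These differences lie at the start of the message, far from its end.

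Of the 5 genes grouped here for glutathione synthesis, its reduction and as NRF2 targets, 2 were detected in at least 9 cells. None was detected in all cells. The matching shares of all rows were 46.9% and 13%. Hmox1, the inducible haem oxygenase, was detected in 15 cells at 4.30 ± 2.60 (SD, n = 17 cells), from 0.71 in cell 14 through a median of 4.62 to 8.82 in cell 16. Gclm, the modifier subunit of the rate-limiting enzyme of glutathione synthesis, was detected in 9 cells (mean 2.44, SD 2.62) and was highest in cells 5 and 11, at 7.55 and 7.19. The catalytic subunit Gclc and the glutathione reductase Gsr were detected in 4 cells each, with means of 1.24 and 1.40. Nqo1, a quinone reductase often read as a marker of NRF2 activity, was detected in 1 cell, cell 6, at 5.38. Nfe2l2 itself was detected in 16 cells (mean 5.12, SD 2.26), with its highest value, 8.49, in cell 10, while Keap1, which marks NRF2 for destruction, was detected in 5 (mean 1.02, SD 1.32). Bach1, a repressor of Hmox1, was detected in 8 cells (mean 1.99, SD 2.24). After Nfe2l2, the highest genes on the list of regulators were Hif1a, detected in 11 cells (mean 3.48, SD 2.65), and Nfe2l1, detected in 16 (mean 3.43, SD 1.41).

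Supply genes for glutathione and NADPH were detected unevenly. Slc3a2, the heavy chain of the cystine transporter, was detected in all 17 cells (mean 6.10, SD 2.12). Its partner Slc7a11 was detected in 15 (mean 2.86, SD 1.62), and Srxn1, which repairs overoxidised peroxiredoxins, in 13 (mean 3.53, SD 2.38). Of 7 NADPH supply genes 1 was detected in all cells, Taldo1 of the pentose phosphate pathway (mean 5.43, SD 1.88), followed by Idh1 in 16 cells (mean 4.23) and G6pdx in 14 (mean 4.05). Of 7 measured zinc transporters none was detected in all cells, the highest being Slc39a7 (mean 3.67, SD 2.92), Slc39a6 (mean 3.21, SD 3.02) and Slc39a1 (mean 2.90, SD 2.27). Over all 53 measured partner genes 10 were detected in all cells, set against 13% of all rows, and their median mean level was 3.27.

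The core of the antioxidant response element, the site of NRF2, was searched as TGACNNNGC on both strands in the 250 bases before each RefSeq start. It was found for 11 of 54 members with a window (20.4%) and for 11.5% of all genes. A gene with several windows counts if any holds a match. Counted by window, 11 of 75 member windows (14.7%) and 10.2% of all windows held it. Nqo1 had a window without a match. Prdx1 and Txnrd1 are shown as members that hold it, with the match in capitals and here read on the other strand (GRCm38.p6, chr4:116685445-116685495 and chr10:82859093-82859143, plus strand).
Prdx1: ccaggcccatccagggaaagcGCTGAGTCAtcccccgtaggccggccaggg
Txnrd1: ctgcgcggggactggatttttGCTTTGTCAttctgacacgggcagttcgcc
The match in the window lies 133 bases before the start of Prdx1 and 92 before a start of Txnrd1. A match describes the letters and not the binding of a factor.

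Of 10 aldehyde dehydrogenases, Aldh1a1, which makes retinoic acid, was detected in all 17 cells. Its level was 5.87 ± 1.67 (SD, n = 17 cells), from 2.36 in cell 14 through a median of 6.05 to 8.17 in cell 10. Aldh7a1 was detected in 15 cells (mean 3.18, SD 1.86) and the mitochondrial Aldh2, which clears acetaldehyde, in 13 (mean 2.75, SD 1.51). Aldh1a3, the other retinoic acid enzyme measured, was high in few cells: it was detected in 5, reached 6.63 in cell 15, and had a median of 0.49. Aldh3a2, a fatty aldehyde dehydrogenase, was detected in 7 cells with a highest value of 6.98 in cell 11.

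Over the whole list the correlations between members centred near 0. Of the members 62 were detected in at least 3 cells, as were 89.4% of all rows, and among these 62 the mean pairwise Pearson correlation over 17 cells was 0.00066 (SD over 1891 pairs 0.28), against -7.7e-05 among the 7551 such rows of the table. Pairs with r above 0.5 made up 3.49% of member pairs and 2.57% of all pairs, and pairs below -0.5 made up 3.33% and 1.81%. All cells share 1 distribution of values, which holds the mean over all rows near 0 by construction, so it is no measured background. The depths of the cells are also unknown, and these correlations are descriptions. Within roles, the 2 microsomal transferases had a correlation of 0.34, the 4 eligible genes of glutathione synthesis and NRF2 targets a mean pairwise correlation of 0.22, the peroxiredoxins 0.17, the 13 eligible glutathione S-transferases 0.09 and the 3 eligible glutaredoxins -0.28. The dismutases with catalase were at -0.16, and the remaining roles with several genes lay between -0.06 and 0.06.

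**Figure D3:**
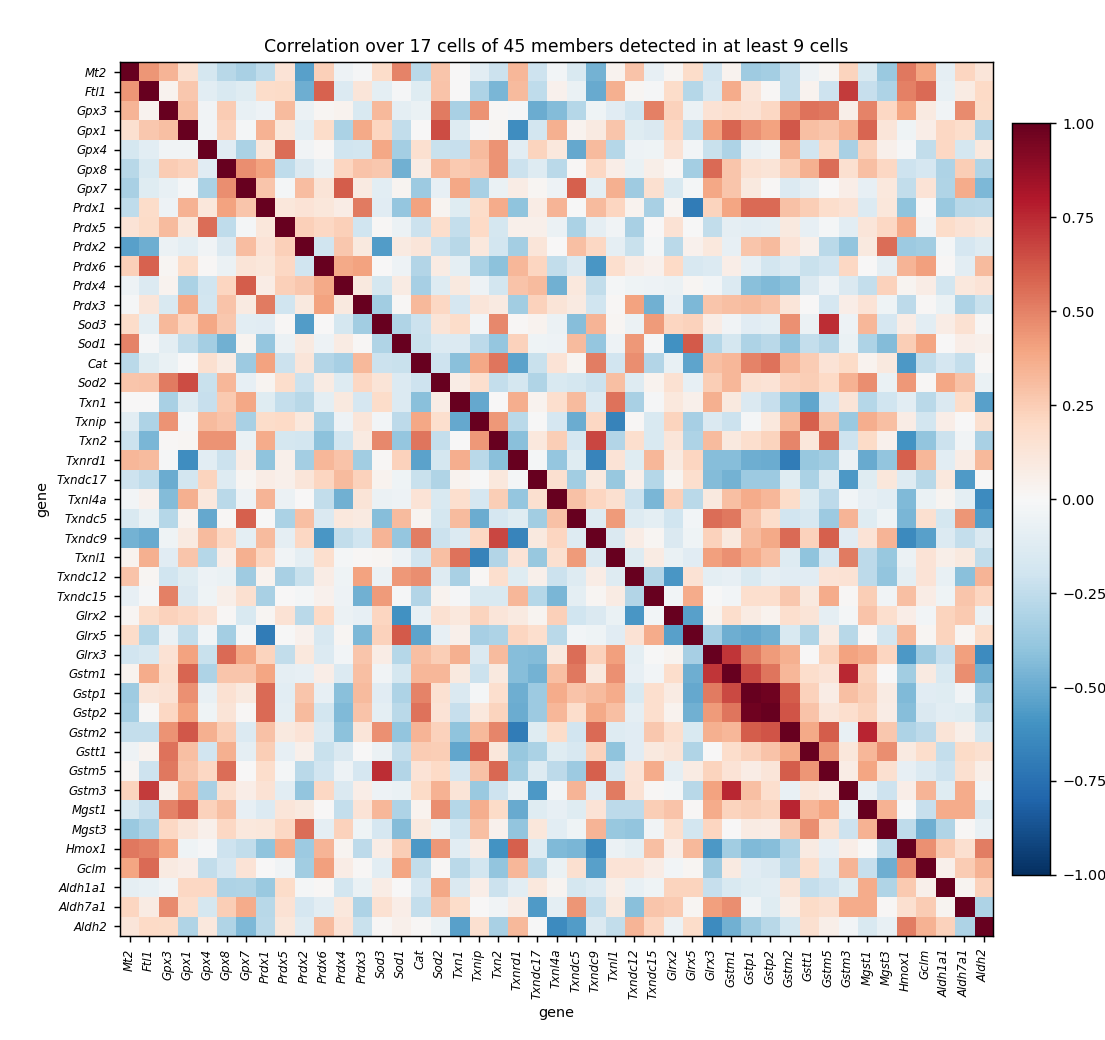
Pearson correlation over the 17 cells between the 45 members detected in at least 9 cells, ordered by role, from -1 (blue) to 1 (red). The dark red square of Gstp1 and Gstp2 (r = 0.97) stands out, with Glrx3, Gstm1 and Gstm2 in warm colours beside it, and no role forms a red square as a whole.

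The highest and, further below, the lowest pairs are given of the 990 that 45 members detected in at least 9 cells can form. With so many pairs compared over few cells, these values are the extremes of many. Whether any pair exceeds what so many pairs would give was not tested. After Gstp1 and Gstp2, the highest was Mgst1 with Gstm2 (r = 0.76, rho = 0.65), which fell to 0.61 without cell 11 and to 0.54 without cells 11 and 15. Gstm1 and Gstm3, both of the mu cluster on chromosome 3, had r = 0.76 and rho = 0.79, but Gstm3 was low throughout, with a mean of 1.51 and a highest value of 3.59. Gstm5 and Sod3 had r = 0.74 (rho = 0.65), and 0.69 without cell 7. Glrx3 and Gstm1 had r = 0.72 (rho = 0.64), and 0.64 without cell 16. Gstm3 and Ftl1 had r = 0.70 (rho = 0.65), which fell to 0.59 without cell 11 and to 0.52 without cells 3 and 11. Gstp1 and Gstm1 had r = 0.66, which was 0.14 with cell 16 left out.

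The lowest pair was Txnrd1 with Gstm2 (r = -0.70, rho = -0.59), followed by Glrx5 with Prdx1 (r = -0.70, rho = -0.68) and Txnl1 with Txnip (r = -0.67, rho = -0.67). Without cell 16 the first was -0.61 and the second -0.63. Cells 4, 5 and 2 had the lowest Txnrd1, at 0.44, 0.48 and 0.51, with Gstm2 at 9.64, 9.02 and 8.06. Cells 16 and 11 had the highest Txnrd1, at 7.58 and 6.89, with Gstm2 at 4.07 and 3.62.

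Cell 16 held the highest Mt2, Hmox1 and Txnrd1 of all cells and the lowest Gstp1, Gstp2, Gstm1, Gpx1 and Prdx1. It was the lowest cell for 5 of the 25 members detected in every cell, more than any other cell. It is also the cell least like the others and the one with the highest summed adipocyte markers, and the part of either in these values was not tested. Hmox1 and Txnrd1 had r = 0.59 (rho = 0.55) over 17 cells and 0.50 without cell 16. Mt2 had r = 0.53 with Hmox1 (rho = 0.51), and 0.43 without cell 16. With Ftl1 it had r = 0.44 (rho = 0.55), which was 0.55 without cell 16 and 0.34 without cell 1. These pairs were chosen after their values were seen.

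**Figure D4:**
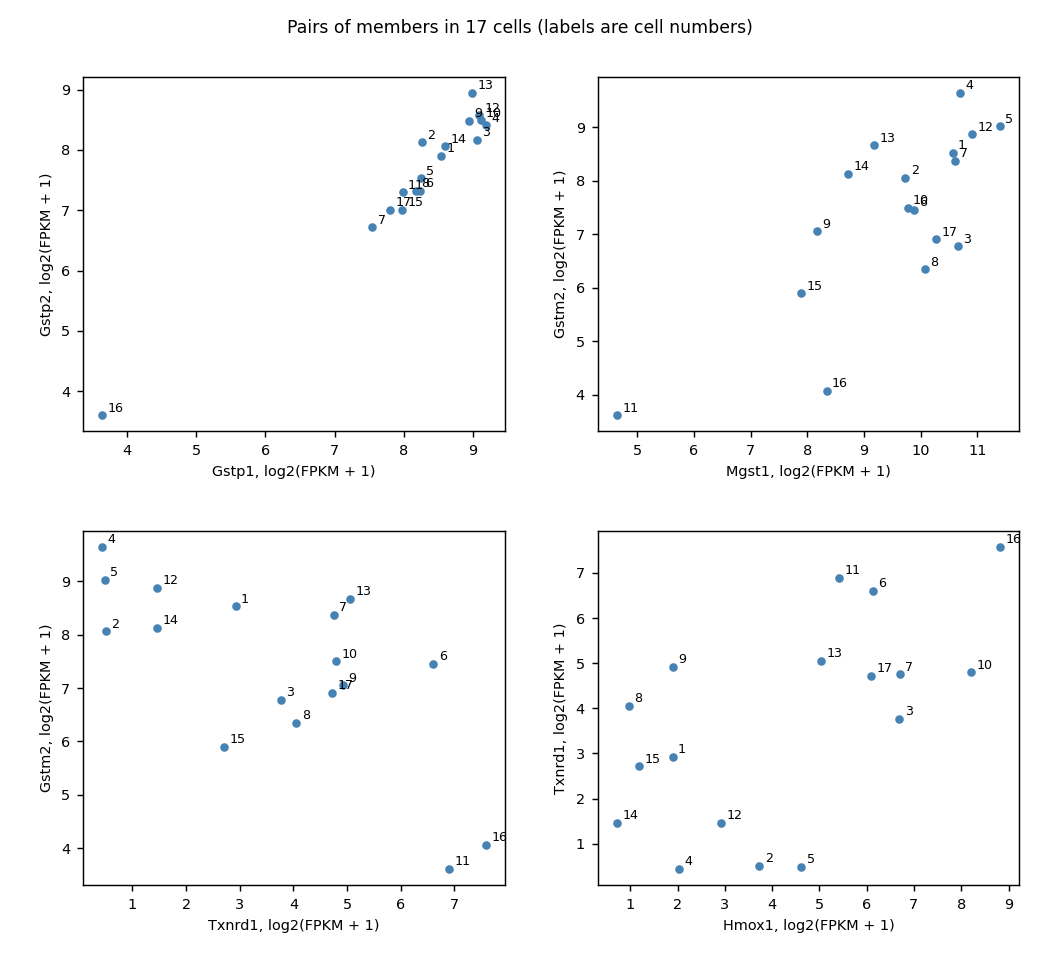
Levels of 4 pairs of members, one point per cell labelled with its number, both axes in log2(FPKM + 1). Gstp1 and Gstp2 lie on a line with cell 16 far below, Mgst1 and Gstm2 rest in part on cell 11, Txnrd1 and Gstm2 slope down, and Hmox1 and Txnrd1 slope up with cell 16 at the top right.

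For Gpx3, Mt2 and Ftl1 the rows with the closest pattern over cells are given. None of these rows is a member, but nearly all rows ranked lie outside the list. Over 3963 other rows detected in at least 9 cells, Gpx3 was followed most closely by Il11ra1 (r = 0.91, rho = 0.79, and 0.80 without cells 8 and 15). Next came Pcolce (r = 0.77, rho = 0.49, and 0.54 without these cells) and Sepp1 (r = 0.75, rho = 0.59, and 0.43 without them), the table's name for Selenop, the secreted selenium carrier. Mt2 was followed most closely by Tex264 (r = 0.87, rho = 0.85), Ifrd1 (r = 0.82, rho = 0.66) and Ets2 (r = 0.78, rho = 0.81). Ftl1 was followed most closely by Ccnt1 (r = 0.83, rho = 0.78), Sde2 (r = 0.83, rho = 0.75) and Erdr1 (r = 0.80, rho = 0.82). With so many rows ranked over 17 cells, the highest values are the extremes of many, and they are given as likeness of pattern with no statement on shared control.

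Tissue digestion is known to induce immediate-early and heat-shock genes, and no undigested cells were measured. Over cells, the mean of 18 such genes had r = 0.64 with Gpx3 (rho = 0.57), which was 0.27 without cells 8 and 15. With Mt2 r was 0.40 (rho = 0.45), and it was 0.30 without cell 15, 0.60 without cell 1 and 0.51 without both. The 18 include the heat-shock genes Hspa1a, Hspa1b, Hspa8, Hspb1 and Dnajb1. Among the 12 role means, the highest r with this mean was 0.58, for glutathione S-transferases (rho = 0.50, and r = 0.67 without cells 15 and 16). The lowest was -0.43, for the thioredoxin system (rho = -0.16, and r = 0.11 without cells 8 and 9). The mean of the 10 fibroblast markers had r = 0.69 with Gpx3 (rho = 0.66), which was 0.43 without cells 8 and 15. It had r = 0.0010 with Mt2 and r = -0.41 with Ftl1 (rho = -0.46). The value with Mt2 rests on single cells, being -0.31 without cell 15 and 0.39 without cell 1. Gpx3 was low in cell 15, where the 18 genes and the fibroblast markers averaged 5.49 and 7.22. The count of rows at a cell's floor, the remaining sign of library complexity, had r = 0.02 with Gpx3, 0.25 with Mt2 and 0.15 with Ftl1. The part of digestion in these levels was not tested.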

How the data were processed

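Single-cell RNA profiles of 17 Tomato-positive skin cells were read from 1 deposited table. Per the labels' protocols, libraries were made with a SMART-Seq 3' DE kit and Nextera XT. TopHat2, Cufflinks and GRCm38 are named per the submitters' processing notes (versions: not given in the sources used here). Values as deposited are log2 FPKM plus 1 as read here: the base and constant are not stated, and back-transformed with base 2 cell 1 sums to 592955, with base e to 12675767. Sorted values above 3 differ between cells by at most 0.0165, the form quantile normalisation gives, so depth per cell is unknown and no interval is given. From 871 to 1766 genes per cell stood at the lowest value.

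Rows were matched to GENCODE M21 by identifier (8431 of 8446, all 66 members) for coordinates and union exon length, and partner genes under older names by identifier. Promoters are from RefSeq (GRCm38.p6), with a window for 54 of the 66 members. Sharing of transcript ends counted 50-base words in the last 300 bases of 1 principal transcript per member. Means, SDs and correlations are over cells, with no p-value. The code for the mean pairwise correlation was checked on simulated lists, which is no test of the members. Members and lists were chosen with earlier results of these data known. Named are the 12 highest members, the 2 highest of each role and the members of the 6 highest and 3 lowest pairs. Named too are the 6 members with the largest SD among those detected in 4 to 13 cells. From the partner lists, the 3 highest of each are named, with the regulators Nfe2l2, Keap1, Mtf1, Bach1 and Ireb2. Other members named were chosen after their values were seen. Python 3.11.15, numpy 2.4.6, pandas 2.3.3 and matplotlib 3.10.9 were used.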

Additional observations from a re-analysis of the deposited data

How the results depend on the processing

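The number of members detected in all cells, 25, was 44 when any value above the lowest of a cell counted as detection, where 43.4% of all rows were detected in every cell, since the threshold itself is lower. It was 17 at FPKM 10, 26 after multiplication by length, 28 with values read as natural logs (chosen after seeing the data), and 25 to 26 with each cell left out in turn. The median member level, 3.97, lay between 3.84 and 4.09 with a cell left out, and was 3.54 with a pseudocount of 0.1, where the median row was at 0.62. The mean pairwise correlation lay between -0.0030 and 0.0040 with a cell left out and was 0.020 for members detected in at least 9 cells. Rescaling each cell to 1 sum changes nothing, as the sums are nearly equal. The correlation of Gstp1 and Gstp2 lay between 0.93 and 0.98 with a cell left out, and that of Mgst1 and Gstm2 between 0.61 and 0.79. The latter was 0.75 when the means of sets by cell number (1 to 5, 6 to 14 and 15 to 17) were subtracted. That subtraction moved other pairs either way, such as Gpx3 with Gpx1 (0.30 to 0.13) and Gstm5 with Sod3 (0.74 to 0.81). The planned correlations of Mt1 with Mt2 and of Fth1 with Ftl1 were not run because Mt1 and Fth1 have no row. No paired analysis was possible because all cells form 1 group. With depth unknown, a value at 0 does not show that a gene is silent.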
